A study of Homo sapiens with 3 samples.

Results

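The miR-181 family comprises the miRNAs hsa-miR-181a, hsa-miR-181b, hsa-miR-181c and hsa-miR-181d, and its signal in Argonaute2 (Ago2) immunoprecipitates of Hep G2 cells was examined here. The 4 members were taken by their exact names, out of 851 human miRNA names on the array. Hep G2 is a human liver cancer cell line. Cells were transfected with a duplex RNA mimicking miR-195 or miR-497 at 5 nM for 24 hours, or left non-treated (NT). Ago2 with its bound RNA was then recovered by antibody. Each group held 1 single-colour Agilent array, so no difference between arrays has a replicate check, no test between groups could be run, and a control transfected with an unrelated duplex is not analysed here.

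In the RNA-induced silencing complex Ago2 carries the guide strand of a miRNA, and bases 2 to 8 of that strand, the seed, pair with target mRNAs. Members of the miR-181 family share their seed and differ further along. The family is best known from lymphoid cells, where miR-181a tunes the strength of T-cell receptor signalling and miR-181b represses the antibody-diversifying enzyme AID. miR-181c has been described in mitochondria of heart muscle, and miR-181d as a repressor of the DNA repair enzyme MGMT in glioblastoma. In liver cancer the family has been linked to stem-like tumour cells that carry the surface protein EpCAM, in which it is known to repress differentiation factors such as CDX2 and GATA6.

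The mature sequences are shown because they define what the probes of each name had to capture, and because members this close may also bind each other's probes, which was not tested. Sequences are those of RefSeq on GRCh38.p14, listed there under names ending in 5p, and all 4 members matched. Capitals mark the seed.
hsa-miR-181a: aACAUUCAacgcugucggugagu
hsa-miR-181b: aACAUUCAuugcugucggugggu
hsa-miR-181c: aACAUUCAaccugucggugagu
hsa-miR-181d: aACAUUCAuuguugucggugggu
The transfected miRNAs are shown for comparison, since their seed is another one.
hsa-miR-195: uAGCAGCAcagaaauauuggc
hsa-miR-497: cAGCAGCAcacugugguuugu
Counted from the 5′ end, hsa-miR-181b differs from hsa-miR-181a by 3 substitutions, A9U, C10U and A21G. hsa-miR-181d differs from hsa-miR-181b by C12U alone, an identity of 95.7%. hsa-miR-181c equals hsa-miR-181a with the base at position 11 left out, and is 22 bases long where the others are 23. The only other mature miRNA of the RefSeq table with this seed, hsa-miR-4262, was not among the names on the array.

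These 4 miRNAs are made from 6 genes in 3 pairs. On GRCh38.p14, MIR181A1 (chr1:198859044-198859153) and MIR181B1 (chr1:198858873-198858982) lie 61 bases apart on the minus strand, within the span of the long non-coding RNA gene MIR181A1HG. MIR181A2 (chr9:124692442-124692551) and MIR181B2 (chr9:124693710-124693798) lie 1158 bases apart on the plus strand, within the span of MIR181A2HG. MIR181C (chr19:13874699-13874808) and MIR181D (chr19:13874875-13875011) lie 66 bases apart on the plus strand. MIR181A1 and MIR181A2 give the same hsa-miR-181a strand, and MIR181B1 and MIR181B2 the same hsa-miR-181b strand. The array therefore reads both loci of each miRNA as 1 value.

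None of the 4 members was well above background on any of the 3 arrays. This held for 0 of 4 members in NT cells, where 19.7% of the 851 human names were well above background, for 0 of 4 after miR-195, where 18.0% were, and for 0 of 4 after miR-497, where 14.2% were. Each member had 2 probes of 8 spots. Among the 483 human names with 2 probes the corresponding shares were 29.6%, 27.3% and 22.4%. The scanner software flags each spot that is well above background. A probe was counted so if the flag was on over 50% of its used spots, and a name if this was true of at least 1 probe. The software's own call per miRNA was also negative for each member on each array, and the normalized table deposited by the authors lists all 4 at its floor of 0. Both rest on the same scanned spots and are no separate evidence.

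Single spots were examined as well. Of the 192 spots of the family on the 3 arrays, 24 carried an outlier flag and were left out, and 0 of the remaining 168 were well above background. The brightest used spot of the family read 8.06 intensity units in NT cells, 11.1 after miR-195 and 6.56 after miR-497. The dimmest used spot of any name that was well above background read 15.2, 20.7 and 18.0 units on the same arrays. Only 1 of the 192 spots was well above background, an outlier spot of hsa-miR-181a in NT cells at 17.9 units. Other spots of the same probe there averaged 2.99 units (SD 1.56, n = 6).

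**Figure D1:**
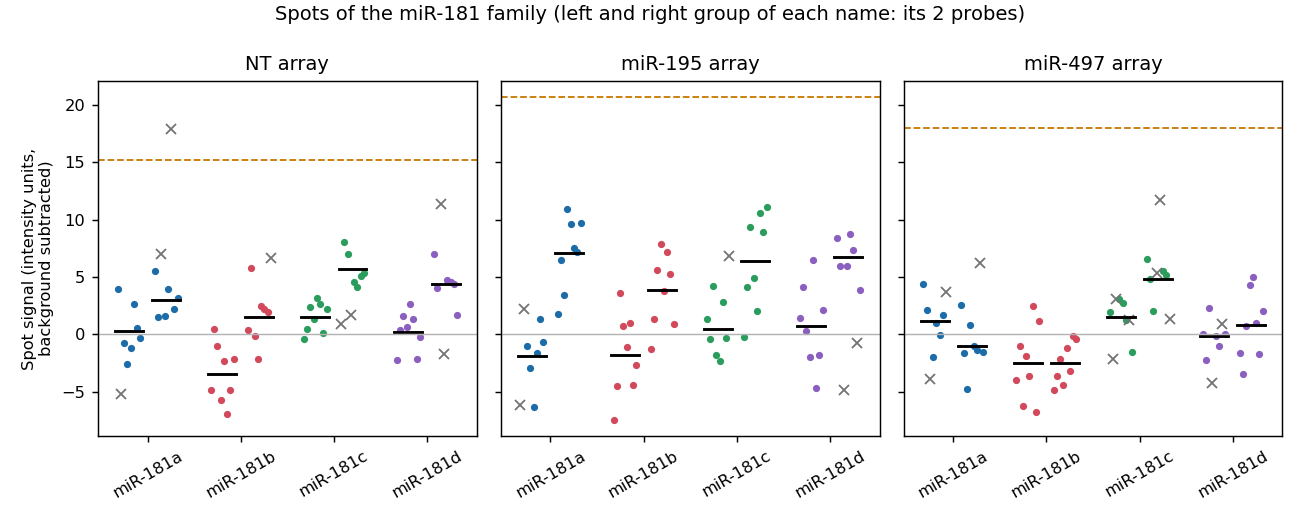
Signal of each spot (vertical axis, background-subtracted intensity units) for the 2 probes of each miR-181 member (horizontal axis) on the 3 arrays; filled points are used spots, crosses are outlier spots, black bars are probe means and the dashed line is the dimmest used spot well above background. All used spots lie below the dashed line on each array, and 1 outlier spot of hsa-miR-181a in NT cells lies above it.

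hsa-miR-181a, summed over its 2 probes, read 3.30 units in NT cells (spot SE 1.07), 5.19 after miR-195 (spot SE 1.54) and 0.221 after miR-497 (spot SE 1.22). Spot SE is the error from the spread between spots of 1 array and covers nothing of the variation between cultures or immunoprecipitations. The reading was highest after miR-195 and near 0 after miR-497. Neither differed from the NT reading by more than 2 spot SE of the difference. From the miR-195 to the miR-497 array it differed by -4.97 units (spot SE 1.97), which is more than 2 spot SE.

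hsa-miR-181b read -1.92 units in NT cells (spot SE 1.30), 2.00 after miR-195 (spot SE 1.71) and -4.99 after miR-497 (spot SE 1.33). A negative reading means that the spots were dimmer than the background subtracted from them. From the miR-195 to the miR-497 array hsa-miR-181b differed by -7.00 units (spot SE 2.16), more than 2 spot SE. Its differences from NT were within 2 spot SE.

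hsa-miR-181c read 7.18 units in NT cells (spot SE 0.777), 6.85 after miR-195 (spot SE 1.75) and 6.34 after miR-497 (spot SE 1.12). They differed by less than the spot SE of their differences, after miR-497 too. hsa-miR-181d read 4.64 units in NT cells (spot SE 0.917), 7.47 after miR-195 (spot SE 1.47) and 0.628 after miR-497 (spot SE 1.22). Its reading after miR-497 was below the others, by -4.01 units from NT (spot SE 1.52) and -6.84 from miR-195 (spot SE 1.91). Both differences exceed 2 spot SE.

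Readings of this size were common among miRNAs that were not well above background. In NT cells 336 other human names with 2 probes fell in that class, and their 5th and 95th percentiles were -9.29 and 10.8 units, with a median of -0.738. Among these names hsa-miR-181a stood at percentile 67.6, hsa-miR-181b at 42.6, hsa-miR-181c at 86.0 and hsa-miR-181d at 75. After miR-195 the members stood at percentiles 71.5, 59.4, 73.8 and 75.5 of 347 such names, in the same order. After miR-497 they stood at percentiles 49.3, 20.5, 80.9 and 51.5 of 371. All 4 members thus lay among undetected miRNAs of the same probe layout. This is no separate evidence on detection, as those names were picked by the same call that the members failed.

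**Figure D2:**
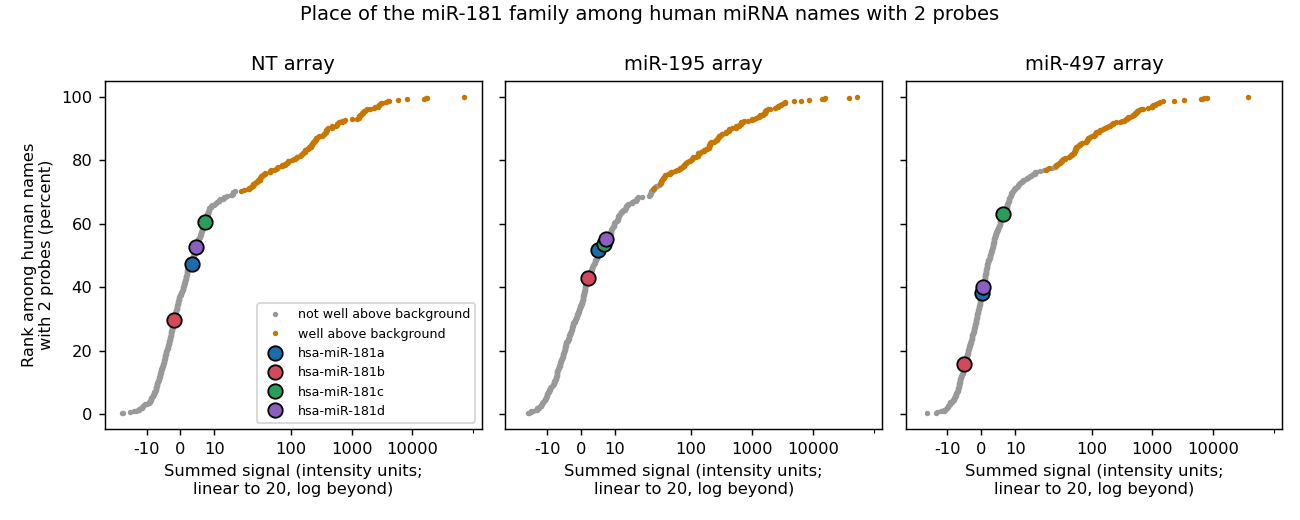
Rank in percent (vertical axis) against summed signal in intensity units (horizontal axis, linear to 20 and logarithmic beyond) for the 483 human names with 2 probes on each array; orange points are well above background, grey points are not, and large points are the miR-181 members. All 4 members sit on the grey part of the curve on each array, between -4.99 and 7.47 units.

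Probes for viral miRNAs gave a second background, as no virus was part of the design. Of the 15 viral names with 2 probes, 14 read lower than each of the 4 members in NT cells and after miR-195. After miR-497 13 read lower than hsa-miR-181a, 8 lower than hsa-miR-181b, 15 lower than hsa-miR-181c and 14 lower than hsa-miR-181d. The viral medians were -7.69, -8.70 and -5.64 units on the NT, miR-195 and miR-497 arrays. The miR-181 readings were thus mostly above those of viral probes, and among those of undetected human probes.

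The software also marks spots as positive and significant, a weaker criterion than well above background. Such spots made up 30.4% of the 56 used spots of the family in NT cells, 40.7% of 59 after miR-195 and 13.2% of 53 after miR-497. In undetected human names with 2 probes they made up 22.8%, 24.1% and 22.1%, and in viral names with 2 probes 6.98%, 9.09% and 3.65%. The family thus had a larger share than viral names on all 3 arrays. Against undetected human names its share was larger in NT cells and after miR-195 and smaller after miR-497. On the miR-497 array 4 of the family's 7 positive and significant spots came from 1 probe, A_25_P00010288 of hsa-miR-181c.

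In NT cells and after miR-195 the faint readings came mainly from 1 probe of each name. Probe A_25_P00010288 of hsa-miR-181c averaged 5.69 units in NT cells (SD 1.53, n = 6), 6.35 after miR-195 (SD 4.22, n = 8) and 4.84 after miR-497 (SD 1.71, n = 5). Its positive and significant spots numbered 6 of 6, 6 of 8 and 4 of 5. The other probe of hsa-miR-181c, A_25_P00010287, averaged 1.49, 0.497 and 1.50 units on the same arrays. Spots of 1 probe share their target and array and are no replicates of the condition.

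For hsa-miR-181a, probe A_25_P00014832 averaged 2.99 units in NT cells (SD 1.56, n = 6), 7.09 after miR-195 (SD 3.16, n = 8) and -0.983 after miR-497 (SD 2.26, n = 7). The other probe, A_25_P00010285, averaged 0.309, -1.90 and 1.20 units. The probes of hsa-miR-181a therefore moved in opposite directions between arrays. For hsa-miR-181d, probe A_25_P00012515 averaged 4.40 units in NT cells, 6.73 after miR-195 and 0.803 after miR-497, and A_25_P00012514 averaged 0.242, 0.743 and -0.175. For hsa-miR-181b, probe A_25_P00012090 averaged 1.51, 3.85 and -2.51 units and A_25_P00012089 averaged -3.43, -1.84 and -2.48.

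The comparisons between arrays ask whether either mimic altered the miRNAs held by Ago2. For the miR-181 family they gave no fold change, because no member was measured on either array of any comparison. Across the array, 2.72% of 147 miRNAs measured on both arrays were at least 2-fold higher after the miR-195 mimic than in NT cells and 0.680% at least 2-fold lower. For the miR-497 mimic against NT the shares were 3.39% and 0.00% of 118, and between the mimics 1.71% and 0.00% of 117. A change of the family below the detection limit could not be seen on these arrays.

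Unscaled readings can still be set side by side. From NT to the miR-195 array the members differed by -0.330 to 3.92 units, with 3 of 4 above 0. From NT to the miR-497 array they differed by -4.01 to -0.837 units, all 4 below 0, and from the miR-195 to the miR-497 array by -7.00 to -0.508 units, again all 4 below 0. These comparisons share arrays. In the same order, 95% of undetected human names with 2 probes differed by -5.29 to 11.3, -8.26 to 5.96 and -17.3 to 6.85 units, and 0 of the 4 members lay outside any of these ranges. The medians of these names were -0.00150, -0.228 and -0.311 units, so differences on either side of 0 were common among them. In the same order the family sum differed by 8.32 (spot SE 3.85), -11.0 (spot SE 3.21) and -19.3 units (spot SE 4.06). Each exceeds 2 spot SE, which covers no variation between cultures or immunoprecipitations. The ranges concern single names, and a joint shift of the 4 members was not tested. Probes well above background on all 3 arrays were dimmer after miR-497, with a 75th percentile of 263 units over these probes against 827 in NT cells and 778 after miR-195. Undetected names with 2 probes cannot show whether they were dimmed by a like factor, because they centred near 0. Their medians were -0.738 units in NT cells and 0.358 after miR-497.

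The summed reading of the family was 13.2 units in NT cells (spot SE 2.07), 21.5 after miR-195 (spot SE 3.24) and 2.20 after miR-497 (spot SE 2.45). Set against the signal of all human miRNAs well above background, without both transfected miRNAs and their passenger strands, this was 0.00553%, 0.0101% and 0.00223%. With each member placed at the dimmest human miRNA that was well above background on that array, the family would hold 0.0187% of the signal in NT cells, 0.0442% after miR-195 and 0.0777% after miR-497. In NT cells this level was 11.1 units, set by hsa-miR-582-3p. These levels were no upper limit, since undetected names with 2 probes read up to 23.7, 37.5 and 24.9 units on the NT, miR-195 and miR-497 arrays. With each member at that brightest undetected reading, a choice made after seeing the data, the family would hold 0.0398%, 0.0701% and 0.101%. These are shares of signal and not of molecules, as probes differ in affinity. Shares of single members within the family are not given, since they would divide background by background.

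Other miRNA groups on the same arrays were measured. For scale, 19.7%, 18.0% and 14.2% of the 851 human names were well above background on the NT, miR-195 and miR-497 arrays. Some names of these groups had 3 or 4 probes, where each miR-181 member had 2. In the let-7 family, which is known to oppose growth and stemness, 8, 7 and 6 of 9 members were well above background in NT cells, after miR-195 and after miR-497, and the group held 1.91%, 1.97% and 1.54% of the signal. In the miR-30 family, which is common in epithelial cells, 4 of 5 members were well above background on each array, with shares of 0.410%, 0.452% and 0.294%. In the cluster of miR-183, miR-96 and miR-182, 2 of 3 members were, with 0.530%, 0.623% and 0.496%. On each array these shares exceeded that of the miR-181 family with each member at the brightest undetected reading.

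**Figure D3:**
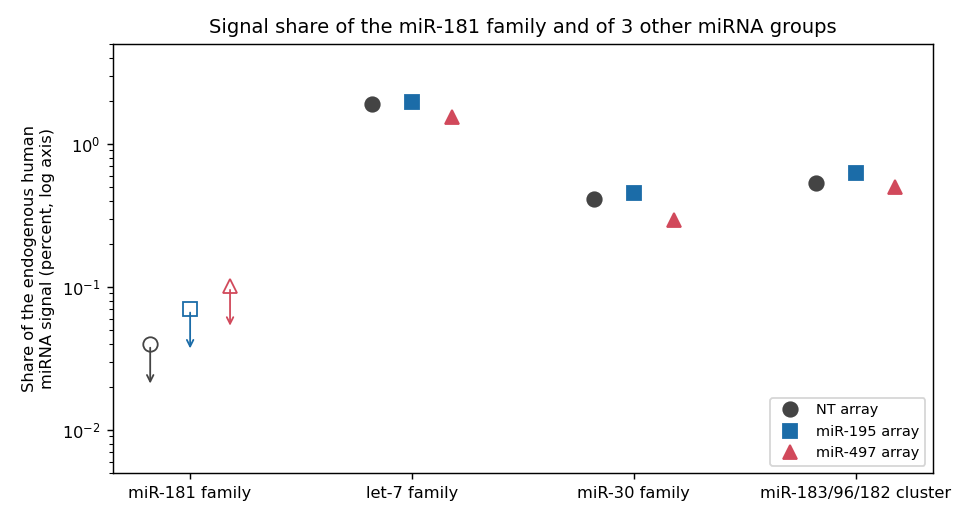
Share of the endogenous human miRNA signal in percent (vertical axis, logarithmic) for the miR-181 family and 3 other miRNA groups (horizontal axis) on the NT, miR-195 and miR-497 arrays; filled symbols are measured shares and open symbols with arrows place each undetected member at the brightest reading of an undetected name with 2 probes. These miR-181 values of 0.0398%, 0.0701% and 0.101% lie below the measured shares of the other groups.

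The opposite strands of the miR-181 hairpins, marked by an asterisk, gave the same picture. The array carried 3 of them, hsa-miR-181a*, hsa-miR-181a-2* and hsa-miR-181c*, and 0 of 3 were well above background on any array. Of the 851 human names 19.7%, 18.0% and 14.2% were so on the NT, miR-195 and miR-497 arrays. With so few names, 0 of 3 says little by itself. hsa-miR-181a* had 2 probes and the other strands had 4 each. hsa-miR-181a* read 6.11 units in NT cells, 8.23 after miR-195 and 2.63 after miR-497. hsa-miR-181a-2* read -0.747, -3.52 and -5.93 units, and hsa-miR-181c* read -8.22, -8.50 and -5.63. Neither strand of these hairpins was thus measured in Ago2.

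Markers of cell types were read on the same arrays, because the family is abundant in lymphoid cells. Among all 851 human names, 19.7%, 18.0% and 14.2% were well above background on the NT, miR-195 and miR-497 arrays. Of 4 hepatocyte miRNAs, hsa-miR-192, hsa-miR-194 and hsa-miR-215 were well above background on all 3 arrays, and the whole list summed to 4390, 4933 and 1833 units on the NT, miR-195 and miR-497 arrays. The defining hepatocyte miRNA hsa-miR-122 was not, at 3.62, -0.241 and 5.62 units. Of 5 blood-cell miRNAs, hsa-miR-142-3p and hsa-miR-142-5p were well above background on each array, with hsa-miR-142-3p at 1521, 1244 and 397 units. The others, hsa-miR-150, hsa-miR-155 and hsa-miR-223, read between -7.14 and 13.4 units and were not. The endothelial hsa-miR-126 and 4 muscle miRNAs did not reach that level in any sample.

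The arrays measured Ago2-bound RNA only. The miR-181 family may have been little expressed in these cells, present but not held by Ago2, or held by Ago2 below the detection limit. These cannot be told apart here, and total RNA of the same cells is not analysed.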

How the data were processed

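For Hep G2 cells, Ago2-immunoprecipitated RNA was read on 3 single-colour Agilent arrays, 1 per group, and the sample labels gave the groups. The deposited scanner files hold spot intensity on a linear scale from Agilent Feature Extraction 10.7.1.1, background-subtracted within each array and not scaled between arrays. The table of log2 values deposited by the authors was made in GeneSpring, with raw signals floored at 1 and a 75th percentile shift. Here signals were averaged over spots without outlier flags per probe and summed per miRNA name (Python 3.11.15, pandas 2.3.3). For fold changes of other miRNAs, sums were divided by the 75th percentile of 183 probes well above background on all 3 arrays. No spot was saturated. The code was tested on simulated spots. With 1 array per group no test was run, and precision is limited by the number of arrays. The arrays shared 1 slide, so no slide effect was fitted. With 1 array per group, differences in culture, immunoprecipitation or labelling cannot be told apart from the groups.

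Alternatives covered the background (normexp, offset 50, limma 3.58.1, on the median pixel signal), the summary of spots and of a miRNA, outlier spots, the detection rule, the denominator and the deposited table. The members, the marker lists and the comparison groups were chosen with earlier results of these data known. Named miRNAs were the 4 members, other names starting with hsa-miR-181, seed relatives on the array, and for each member detected on all 3 arrays its nearest miRNAs by pattern. No member met the last condition, so none are named by it; the names that set a detection limit were chosen after their values were seen.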

Additional observations from a re-analysis of the deposited data

How the results depend on the processing

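The count of 0 members well above background held on each array with all spots kept, with probe medians, with all used spots required, with the mean or the restricted sum over probes, with normexp, in the software totals and in the deposited table. Each comparison between arrays likewise had 0 members measured on either array under these 8 settings. Requiring all used spots could only lower the count, so its 0 was fixed by the main result. With probe medians, the mean or restricted sum and normexp the 0 also follows by construction, as the spot flags are the same. The software totals and the deposited table came from the same scans. Nor do the flags depend on the scaling, so the scaling alternatives could give no value for the members and were not run, nor were shares within the family. The family sum on each array moved by less than its spot SE with all spots kept and with probe medians. Its share of the human signal moved most with the normexp correction, whose offset of 50 is added to every spot, to 0.197% in NT cells, 0.224% after miR-195 and 0.433% after miR-497. With sums over probes well above background only, the share was 0% on all 3 arrays by construction. The software totals, floored at 0.1 per miRNA, gave 0.00025% in NT cells, 0.00029% after miR-195 and 0.00048% after miR-497, where the reported value of 0.00223% was itself within its spot SE of 0. With the transfected miRNAs in the denominator the share after miR-195 was 0.00818%. With each member at the dimmest detected name, the share in NT cells rose from 0.0187% to 0.0301% when only names with 2 probes were considered. At the brightest undetected name with 2 probes it was 0.0398% in NT cells, 0.0701% after miR-195 and 0.101% after miR-497. Both limits were chosen after seeing the data. No paired analysis was possible because each group held 1 array. Signal over background limits these arrays: used spots called well above background began at 15.2 to 20.7 units.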
